A study of Danio rerio with 416 samples.

Results

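The proteasome is the enzyme that breaks down most of the proteins a cell has marked with ubiquitin, and its subunits and helpers are encoded by the PSM genes. All rows of the deposited tables whose name starts with PSMA, PSMB, PSMC, PSMD, PSME, PSMF or PSMG followed by a digit were taken. This gave 56 of the 25208 gene rows of the full-length expression table and 53 of the 19205 rows of the 5-prime count table. The label held for 55 of the 56, while psmc3ip, caught by its name, encodes a partner of meiotic recombinases and no proteasome subunit. Its values are counted with the members and are named apart. The members absent from the 5-prime table were psmb8a, psmb11b and psmd4. No row is named psma7; RefSeq (assembly GRCz12tu) gives psma7 as a synonym of psma8, so the psma8 row stood for the seventh alpha position here. RefSeq matched 54 rows by symbol. The other 2 matched by synonym, psma2 to psma2a and psma2b together and psmd4 to psmd4b, so which gene copy these rows count is uncertain.

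The core particle is a barrel of stacked rings, in which outer rings of alpha subunits gate the entrance and inner rings of beta subunits carry the cutting sites. A regulatory particle caps it: a base with a ring of ATPases unfolds the substrate, and a lid removes its ubiquitin chain. Dedicated chaperones put the parts together, other activators can replace the regulatory particle, and inducible beta subunits take the place of the catalytic ones, chiefly in immune cells. In an early embryo much of the machinery is laid down by the mother, and the complex clears maternal proteins as the embryo's own genome takes over.

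Single cells of zebrafish embryos at 50% epiboly, when the blastoderm has spread over the upper part of the yolk, were picked by hand after the yolk had been removed and the embryo taken apart. The cells came from wild type (strain TLAB, 52 cells) and MZoep (allele tz57, all other cells). MZoep embryos have neither a working maternal nor a working zygotic product of one-eyed pinhead, the co-receptor for Nodal signals. Full-length SMART-seq2 libraries were made from the wild-type cells and most MZoep cells. For 88 MZoep cells, and no wild-type cell, the 5-prime end of each transcript was sequenced with a unique molecular identifier (UMI), so that molecules can be counted. Parents of each genotype were incrossed; the strain background of the MZoep fish and the embryo or clutch of a cell are not named. Each genotype is therefore 1 sample and cells are not replicates: no p-value is given, the differences have no replicate check, and genotype, strain and clutch cannot be told apart. The labels give the full-length cells 4 library preparation batches, p1 to p4, each with cells of both genotypes. The 88 5-prime cells are a batch of their own, p0, so library type and batch cannot be told apart.

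Cells with at least 1500 genes at 1 FPKM (a read count divided by transcript length and library size) or more were kept, which left out 5 wild-type and 31 MZoep cells. Batches p1 to p4 held 3, 14, 18 and 12 of the wild-type cells and 79, 80, 61 and 25 of the MZoep cells. The median number of genes per cell lay between 6726.5 and 7161.5 over the wild-type batches and between 6793 and 7527.5 over the MZoep batches. Read depth is not used here as a number of reads; steps in the low FPKM values gave a depth relative to the median cell, 0.567 in wild-type and 0.736 in MZoep cells of p2 and between 1.14 and 1.39 in every other batch. Of the 6 blastoderm markers, pou5f3 and nanog were at 1 FPKM or more in 100% of the cells of both genotypes, sox3, sox19a and vox in 95.7% to 98.4%, and vent in 80.9% (wild type) and 82.9% (MZoep). All 6 had higher means in MZoep, with log2 ratios from 0.19 to 0.51. The ratio was also above 0 for 61.5% of all measured genes (defined below), with a median of 0.12 and quartiles of -0.16 and 0.39. Means over batches use the same batch weights in both genotypes, and shares of cells are pooled over batches with exact binomial 95% intervals, which cover counting error over cells only.

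Most proteasome genes were well expressed. Of the 56 members, 35 (62.5%) had a mean of at least 10 FPKM in both genotypes, against 14.6% of all rows, and 8 were under 1 FPKM in both. The highest was psme3, a nuclear activator, at 127.8 (wild type) and 121.7 FPKM (MZoep), and it ranked 323 of 25208 rows by mean level. The catalytic subunit psmb7 followed at 100.9 and 116.3 FPKM, and the alpha subunit psma3 at 82.1 and 100.99 FPKM. The order of levels was nearly the same in both genotypes (Spearman's rho 0.98 across the 56 genes of these tables, which are not independent replicates).

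**Figure D1:**
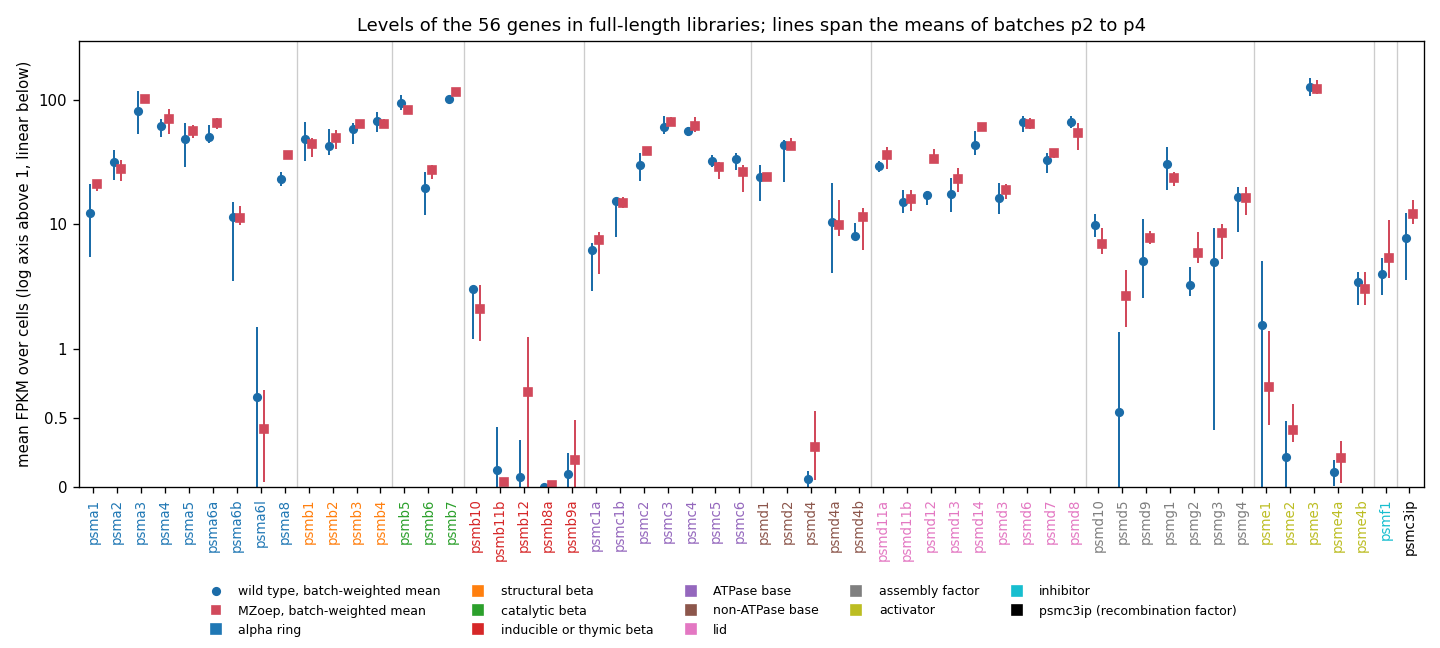
Mean FPKM (log axis above 1, linear below) of the 56 genes, ordered by role, in wild-type (circles) and MZoep (squares) full-length libraries; symbols are batch-weighted means and lines span the means of batches p2 to p4. Core, base and lid genes lie mostly between 10 and 100 FPKM, and the inducible beta genes and most activators lie near the bottom, with psme3 at 127.8 and 121.7 FPKM as the exception.

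The subunits that the core particle holds in equal numbers did not have equal transcript levels per length. Over the 14 positions, psma6a and psma8 standing for theirs, mean levels ran from 12.2 FPKM (psma1) to 100.9 FPKM (psmb7) in wild type, an 8.25-fold range, and from 21.02 to 116.3 FPKM, a 5.54-fold range, in MZoep. The same genes stood at the ends in both genotypes. Among the alpha subunits, psma3 had means of 90.5, 60.6, 115.01 and 54.3 FPKM over wild-type cells, in the order p1 to p4, and of 85.7, 100.8, 102.1 and 104.7 FPKM over MZoep cells. Its batch means overlapped between the genotypes. The row psma6l was detected in 8.51% of cells (wild type) and 4.49% (MZoep), with means of 0.65 and 0.42 FPKM.

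The catalytic beta subunits carry the chymotrypsin-like (psmb5), caspase-like (psmb6) and trypsin-like (psmb7) activities. Wild-type psmb7 means were 114.8, 96.8, 104.2 and 96.5 FPKM in p1 to p4, and MZoep means were 110.4, 114.9, 121.5 and 111.6 FPKM. Over single cells psmb7 ran from 15.3 through a median of 98.5 to 230.1 FPKM (wild type), and from 0 through 105.2 to 431.4 FPKM (MZoep). It was detected in all 47 cells of the wild type and in all but 1 of the MZoep cells. For psmb5, wild-type means were 89.3, 89.95, 107.1 and 85.2 FPKM and MZoep means 85.4, 86.7, 79.6 and 83.4 FPKM, with within-batch log2 ratios (MZoep over wild type) from -0.42 to -0.03. The caspase-like psmb6 was the lowest of the 3, with wild-type means of 17.2, 12.2, 25.8 and 20.9 FPKM and MZoep means of 26.97, 23.6, 29.7 and 29.5 FPKM. Its log2 ratio was 0.46 (1.38-fold), above 0 in each batch. The structural beta subunits psmb1 to psmb4 lay close together, wild-type means being 42.4 to 67.8 FPKM and MZoep means 43.8 to 64.4 FPKM.

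Transcripts of the inducible beta subunits were scarce. The row psmb8a was at 0 in all 47 wild-type cells, which allows a share of up to 6.38% by the limit of 3 counts and of up to 7.55% by the exact binomial interval, and 1 MZoep cell (0.408%) held it. Means of psmb9a were 0.090 and 0.20 FPKM, those of psmb11b, a thymic subunit in mammals, 0.12 and 0.035 FPKM, and those of psmb12, a fish member of the group, 0.072 and 0.69 FPKM in wild type and MZoep. The highest of this group by mean FPKM, psmb10, reached 3.01 and 2.09 FPKM. It was detected in 23.4% (12.3 to 38.03%) of wild-type against 16.3% (11.9 to 21.6%) of MZoep cells. The 3 wild-type cells of p1 averaged 15.5 FPKM, and wild-type means were 1.21 to 2.81 FPKM in the other batches. Summed over the 5 genes the level was 3.29 (wild type) and 3.01 FPKM (MZoep), beside 215.9 and 226.99 FPKM for the 3 catalytic subunits they can replace. In RefSeq assembly GRCz12tu, psmb13a, psmb8a, psmb12 and psmb9a are consecutive genes on chromosome 19; psmb13a is no row of these tables.

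In the base, the ATPases psmc3 (60.4 FPKM in wild type, 66.7 FPKM in MZoep) and psmc4 (56.7 and 61.97 FPKM) were the highest. The ATPases psmc2, psmc5 and psmc6 lay between 26.4 and 38.7 FPKM. The scaffold subunits psmd1 and psmd2 had wild-type means of 24.1 and 43.2 FPKM and MZoep means of 23.8 and 42.7 FPKM. The ubiquitin receptor psmd4 is split over 3 rows: psmd4a (10.4 and 9.87 FPKM), psmd4b (8.09 and 11.3 FPKM) and psmd4 (0.053 and 0.29 FPKM). Summed, the 7 ATPase rows had 234.4 (wild type) and 244.7 FPKM (MZoep), and the 5 other base rows had 85.8 and 88.0 FPKM.

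All 9 lid rows were measured. The structural subunits psmd6 (66.7 and 63.7 FPKM) and psmd8 (66.1 and 54.2 FPKM) led, and psmd14, the enzyme that cuts the ubiquitin chain off the substrate, had 43.6 and 60.3 FPKM. Wild-type psmd14 means were 23.1, 36.8, 54.9 and 41.7 FPKM in p1 to p4, and MZoep means were 66.6, 57.3, 60.4 and 62.3 FPKM. Every MZoep batch mean of psmd14 was above every wild-type one, with a log2 ratio of 0.46. The lowest lid row was psmd11b, at 15.1 and 15.95 FPKM.

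The 7 assembly factors had a median level of 6.76 FPKM (mean of the genotypes), beside 29.7 FPKM over the 9 alpha rows and 32.7 FPKM over the 9 lid rows. The core chaperone psmg1 had 30.5 (wild type) and 23.5 FPKM (MZoep), psmg4 16.4 and 16.1 FPKM, psmg3 4.996 and 8.53 FPKM, and psmg2, which pairs with psmg1, 3.26 and 5.85 FPKM. The base chaperones were psmd10 (9.80 and 6.94 FPKM), psmd9 (5.11 and 7.69 FPKM) and psmd5 (0.54 and 2.66 FPKM). Of the activators, psme1 and psme2, which form the interferon-induced activator of mammals, had wild-type means of 1.55 and 0.22 FPKM and MZoep means of 0.72 and 0.41 FPKM. One wild-type cell held 74.5% of the psme1 signal of its genotype. The activator psme4b had 3.42 and 3.03 FPKM, and the inhibitor psmf1 had 3.99 and 5.38 FPKM.

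Zebrafish carry several of these genes as pairs of close copies, and the share of reads given to each copy depends on how the authors' counting split them, so the ratio between copies is uncertain. In wild type psma6a was 4.37-fold above psma6b and in MZoep 5.73-fold. The copy psmc1b was 2.49-fold and 1.99-fold above psmc1a, psmd11a was 1.93-fold and 2.27-fold above psmd11b, and psme4b was 31.7-fold and 14.3-fold above psme4a. The psme4a means were only 0.108 (wild type) and 0.211 FPKM (MZoep), with 2 wild-type and 10 MZoep cells at 1 FPKM or more. The size of its ratios is therefore uncertain. For psmd4 the order of the means differed, psmd4a being 1.29-fold above psmd4b in wild type and 0.869-fold of it in MZoep. This order also changed between batches. In wild type psmd4a was lower in p2 (4.11 and 7.69 FPKM) and higher in p1, p3 and p4. In MZoep psmd4a was lower in p2 and p3 and higher in p1 and p4 (15.3 and 6.34 FPKM in p4). In the 5-prime MZoep cells psmd4a was the higher copy, with 33.7 and 21.7 UMIs per 1000000 UMIs of all genes. The psmd4 order is therefore not a settled difference between genotypes. For psmc1b the wild-type mean was 76.02 FPKM in the 3 cells of p1 and between 7.99 and 13.9 FPKM elsewhere; its log2 ratio was -0.05 with p1 and 0.50 without it.

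To compare the genotypes, log2 ratios with MZoep as numerator were taken from batch-weighted mean FPKM plus a pseudocount of 1, which understates differences of low genes. A gene counted as measured when its mean over the genotypes was at least 5 FPKM and the mean share of cells at 1 FPKM or more was at least 20%; 42 members, psmc3ip among them, and 6312 genes in all passed. The 14 members that did not pass were psma6l, psmd4, psmd5, psmg2, psmf1, psme1, psme2, psme4a, psme4b and the 5 inducible beta genes. The median ratio of the 42 was 0.16, beside 0.12 over all measured genes, so relative to all genes it was 0.04. The ratio was above 0 for 25 members (59.5%) and for 61.5% of all measured genes. Neither the median nor this share set the proteasome genes apart from the measured genes as a whole.

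At least 1.5-fold higher in MZoep were 4 of the 42 members (9.52%), psmd12, psma1, psmg3 and psma8, where the same held for 14.1% of all measured genes. None was at least 1.5-fold lower, against 6.61% of all measured genes. Past 2-fold there was none in either direction, against 3.74% (higher) and 2.27% (lower). The 42 ratios ran from -0.44 (psmd10) to 0.91 (psmd12). The count higher by 1.5-fold was 2 of 42 without p2, beside 14.05% of all measured genes, and 8 of 43 without p3, beside 14.7%. Of the members that were not measured, psmd5 was past 2-fold, with a log2 ratio of 1.25, and was detected in 6.38% (1.34 to 17.5%) of wild-type against 15.5% (11.2 to 20.7%) of MZoep cells, intervals that overlap.

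**Figure D2:**
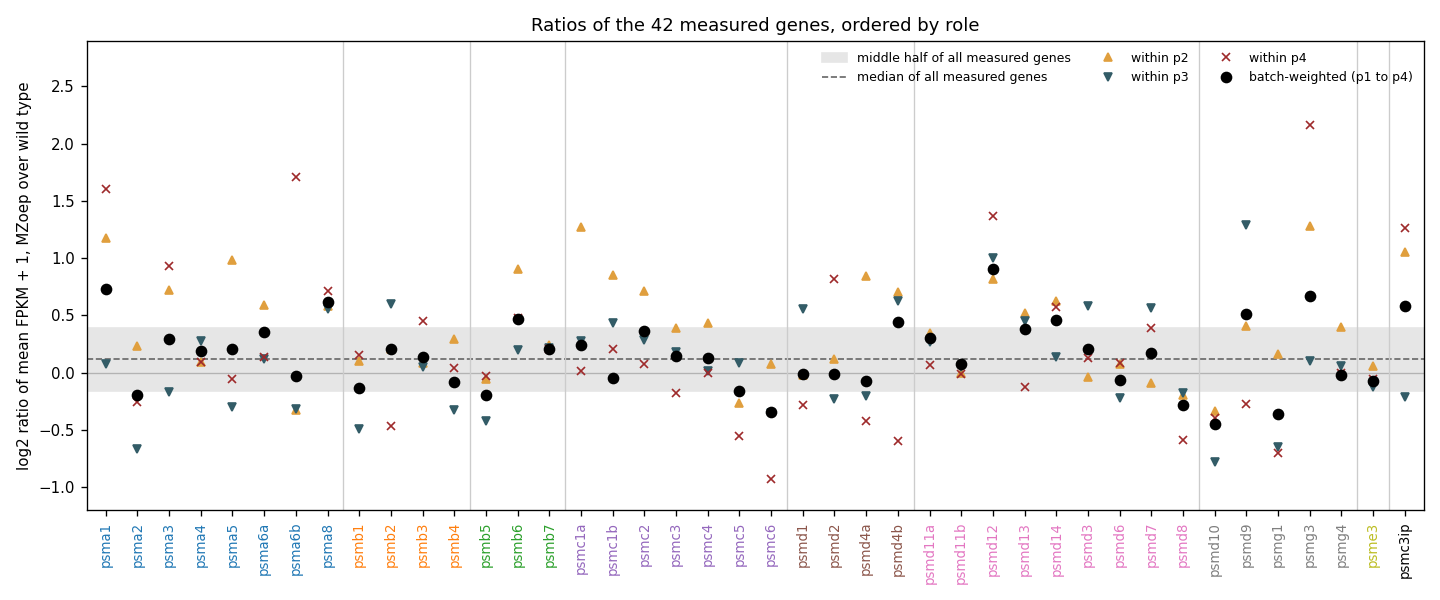
Log2 ratio of mean FPKM + 1, MZoep over wild type, for the 42 measured genes ordered by role: batch-weighted (circles) and within p2, p3 and p4 (triangles and crosses), with the median (dashed) and the interquartile range (grey band) of all 6312 measured genes. Most circles lie in the band; psmd12 is the highest at 0.91 and psmd10 the lowest at -0.44, and the within-batch symbols of one gene are often further apart than the circles of different genes.

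Within batches, the median ratio of the members was 0.05 in p1, 0.32 in p2, 0.08 in p3 and 0.05 in p4. Over all measured genes it was -0.04, 0.23, 0.24 and -0.02. Relative to all genes, the members were thus higher by 0.09, 0.10 and 0.08 in p1, p2 and p4 and lower in p3, at -0.16. The ratio was above 0 in each of p2, p3 and p4 for 15 members (35.7%), against 24.1% of all measured genes: psma1, psma4, psma6a, psma8, psmb3, psmb6, psmb7, psmc1a, psmc1b, psmc2, psmd11a, psmd12, psmd14, psmg3 and psmg4. It was below 0 in each for psmb5, psmd8 and psmd10 (7.14%, against 9.68%). In p2, where the members' median ratio was highest, relative depth was 0.567 for wild-type and 0.736 for MZoep cells, the widest gap toward deeper MZoep cells; in p4 it was 1.144 and 1.197. The part of depth in the ratios was not tested.

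The lid subunit psmd12 had the highest ratio. Wild-type means were 30.9, 18.1, 15.3 and 14.7 FPKM in p1 to p4, and MZoep means were 26.4, 32.8, 31.6 and 39.4 FPKM. Over single cells it ran from 0 through a median of 12.5 to 66.4 FPKM (wild type) and from 0 through 27.9 to 105.4 FPKM (MZoep), so the cells of the genotypes overlapped. The ratios were 0.82, 1.0 and 1.37 within p2, p3 and p4 and -0.22 in p1, with its 3 wild-type cells. The share of cells with psmd12 was 82.98% (69.2 to 92.4%) for wild type, against 94.3% (90.6 to 96.8%) for MZoep.

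The alpha subunit psma8 was the most even of the 4 over batches. Its wild-type means were 14.3, 24.1, 25.6 and 20.8 FPKM in p1 to p4 and its MZoep means 28.4, 36.6, 38.1 and 34.8 FPKM. Each MZoep batch mean lay above all wild-type ones, and the ratios were 0.94, 0.58, 0.55 and 0.71. Single cells ran from 0 through 20.3 to 116.8 FPKM (wild type) and from 0 through 30.4 to 144.6 FPKM (MZoep).

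For psma1, another alpha subunit, wild-type means of 3.96, 8.79, 20.8 and 5.52 FPKM stood beside MZoep means of 22.1, 21.1, 21.9 and 18.8 FPKM. The MZoep batches were alike and the wild-type ones were not, and in p3 the genotypes were nearly level (ratio 0.07). In wild type 1 cell held 14.8% of the psma1 signal. The wild-type batches also varied for the chaperone psmg3, with means of 5.43, 3.16, 9.15 and 0.42 FPKM. Its MZoep means were 8.73, 9.09, 9.86 and 5.34 FPKM, likewise lowest in p4. In wild type 1 cell held 25.03% of the psmg3 signal. This gene was detected in 40.4% (26.4 to 55.7%) of wild-type against 47.3% (40.96 to 53.8%) of MZoep cells, intervals that overlap. The recombination factor psmc3ip, with 7.73 and 12.05 FPKM, had a log2 ratio of 0.58, just under the 1.5-fold limit, and ratios of 1.06, -0.21 and 1.26 within p2 to p4.

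At the low end, the base chaperone psmd10 had a log2 ratio of -0.44. Its wild-type means were 0, 11.9, 11.1 and 8.09 FPKM and its MZoep means 4.88, 9.19, 6.04 and 5.90 FPKM. The median wild-type cell had 3.34 FPKM and the median MZoep cell 0, with 55.3% (40.1 to 69.8%) and 40.8% (34.6 to 47.3%) of cells at 1 FPKM or more. The lid subunit psmd8, at -0.28, was lower in MZoep in each of the 4 batches, its wild-type means being 66.1, 61.04, 72.99 and 61.8 FPKM and its MZoep means 48.2, 53.1, 64.3 and 40.6 FPKM. The chaperone psmg1 (-0.36) was at 0.16 within p2, -0.65 within p3 and -0.70 within p4, and the ATPase psmc6 (-0.34) at 0.08, -0.35 and -0.93.

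Summed over the 56 genes, the members made up a mean of 0.276% (wild type) and 0.302% (MZoep) of all FPKM. The wild-type batch means were 0.283% ± 0.021 (SD over cells, n = 3 cells), 0.253% ± 0.051 (n = 14), 0.297% ± 0.066 (n = 18) and 0.273% ± 0.051 (n = 12). The MZoep batch means were 0.284% ± 0.053 (n = 79), 0.304% ± 0.056 (n = 80), 0.307% ± 0.048 (n = 61) and 0.296% ± 0.044 (n = 25). The MZoep mean was the higher one in each batch, by least in p1 and by most in p2, and single cells overlapped. The SDs are over cells and do not give the spread between samples, of which each genotype has 1. The lowest and highest cells were at 0.098% and 0.389% for wild type, and 0.136% and 0.451% for MZoep. A median of 37 members per wild-type cell and 38 per MZoep cell was at 1 FPKM or more.

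**Figure D3:**
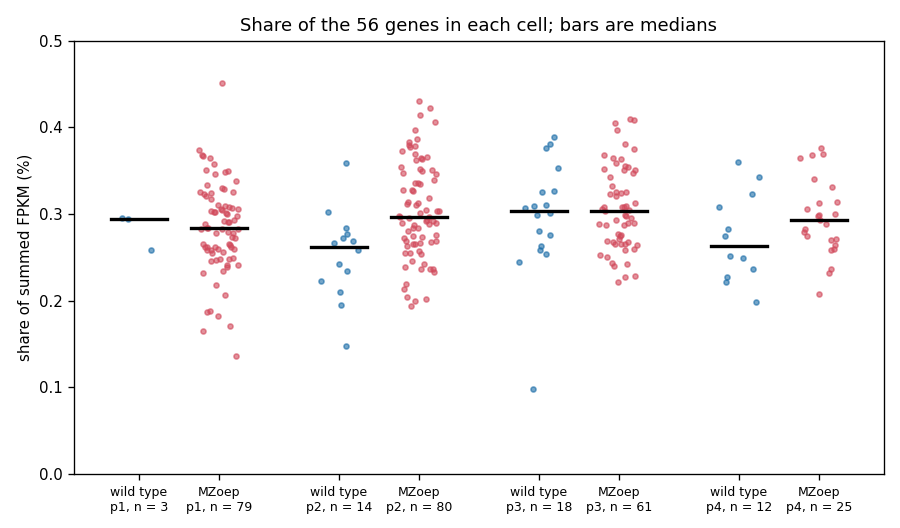
Share of summed FPKM (percent) that the 56 genes took in each kept cell, by batch and genotype; each point is 1 cell and bars are medians. Wild-type and MZoep cells overlap in every batch, and the batch medians lie between 0.263% (wild type, p2) and 0.304% (wild type, p3).

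In both genotypes 8 of the 56 members (14.3%) reached 1 FPKM in at least 95% of the cells, as did 4.796% of all rows: psmb4, psmb5, psmb7, psmc3, psmc4, psmd6, psmd14 and psme3. Most other measured members were also seen in a majority of the cells of both genotypes. Only psmd9 (34.04% in wild type, 38.8% in MZoep) and psmg3 (40.4% and 47.3%) were seen in a minority in both. Of the markers for other cells, enveloping layer keratins were higher in MZoep, and 7 of the 8 listed had rows. Their summed level ran from 33.6 through a median of 133.2 to 1264 FPKM (wild type) and from 0 through 249.2 to 15341 FPKM (MZoep). The 5 germ cell markers summed to a median of 34.7 (wild type) and 39.8 FPKM (MZoep), and 1 MZoep cell reached 5992 FPKM. The 6 yolk syncytial layer markers summed to between 47.3 and 1516 FPKM (wild type) and between 0 and 1658 FPKM (MZoep). Most of this sum was apoeb, at 505.4 (wild type) and 591.3 FPKM (MZoep). It was detected in 100% and 99.6% of cells, so the sum does not single out yolk syncytial layer cells. Of the others, apoa1b was below 1 FPKM in every wild-type cell. In wild type and MZoep, gata6 had 4.85 and 1.75 FPKM, mxtx2 1.05 and 1.66, hnf4a 0.29 and 1.51, and slc26a1 0.36 and 0.35 FPKM. The apoptotic-like list, with 5 of 6 rows, had medians of 6.69 and 7.89 FPKM and highest cells of 556.1 and 1289 FPKM. None of these markers was at 0 over a whole genotype, and their part in the ratios of the members was not tested.

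In the 5-prime libraries molecules rather than reads were counted. The 86 kept cells had between 29246 and 73231 UMIs, with a median of 47194.5 UMIs and 6671.5 genes. The members took 22210 UMIs, or 5470 CPM (UMIs per 1000000 UMIs of all genes; exact Poisson 95% interval 5399 to 5543, counting error only). Per cell this was 4242 to 7092 CPM, with a median of 5484 and an SD of 711.5 over cells, a 1.67-fold range from the lowest to the highest cell. A cell held UMIs of 27 to 43 members, with a median of 37.

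The order of the genes resembled that of the full-length libraries. By level, psmb7 led with 413.1 CPM (393.5 to 433.3), then came psme3 with 369.2 (350.8 to 388.4) and psma6a with 249.8 (234.6 to 265.6). The genes psma3, psmb4, psmb5, psmb7, psmc3 and psme3 had a UMI in all 86 cells. Across the 53 genes in both tables, Spearman's rho between CPM and MZoep FPKM was 0.96, a description across genes that shared cells of 1 genotype and stage but no library. At the bottom psme2 had 1 UMI, psme1 2, psmb10 and psma6l 5 each, psme4a 6, psmb9a 10 and psmb12 20 UMIs over all 86 cells. These are the 7 members seen in under 10% of the 5-prime cells. Of the inducible beta genes with a row here, psmb10 thus had the fewest UMIs, although by MZoep FPKM it was the highest. With so few UMIs their order is uncertain.

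Some genes differed in rank between the library types, which scale by length in one case and count molecules in the other. Among the 53, psmb1 ranked 16 by FPKM and 7 by CPM, psmb6 25 and 14, and psmd1 27 and 18. In the other direction psma5 ranked 13 and 25 and psmd6 10 and 21. The catalytic subunit psmb5 ranked 4 and 12. By CPM it had 166.75 (154.4 to 179.8), close above psmb6 with 147.04 (135.5 to 159.3). By MZoep FPKM these 2 genes were further apart, at 83.2 and 27.5 FPKM. The activator psme4b, at rank 45 by FPKM, had UMIs in 58 cells and ranked 37 by CPM. The 4 genes past 1.5-fold in the full-length comparison had 127.1 (psmd12), 131.03 (psma8), 81.03 (psma1) and 21.9 (psmg3) CPM, at ranks 19, 16, 29 and 41.

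**Figure D4:**
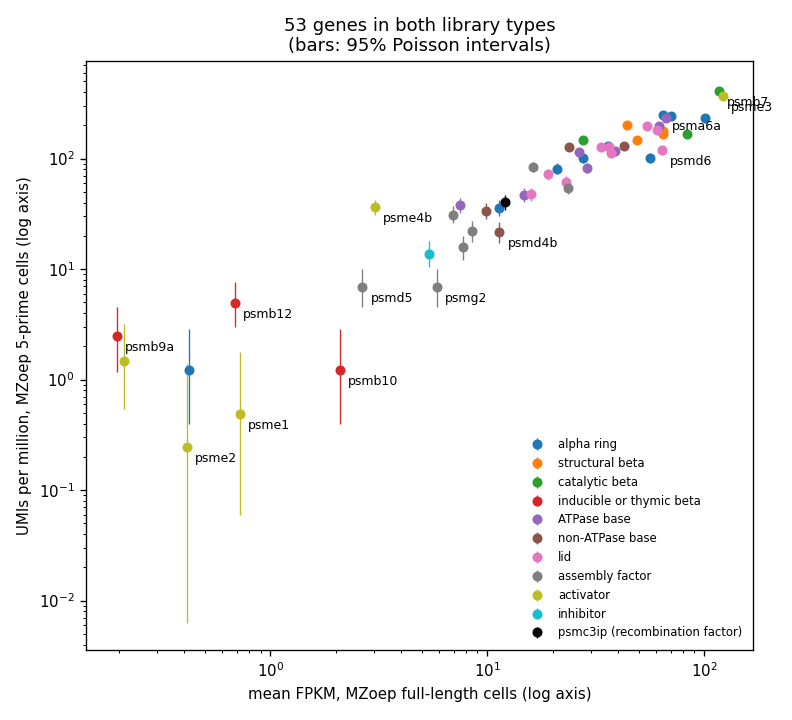
CPM in 5-prime MZoep cells (log axis, bars are exact Poisson 95% intervals) against mean FPKM in full-length MZoep cells (log axis) for the 53 genes in both tables, coloured by role. The points rise together from psme2 (1 UMI) to psmb7 and psme3 (413.1 and 369.2 CPM), and psme4b lies above the others of its FPKM.

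To see how much the genes varied from cell to cell, each 5-prime cell was thinned to 25000 UMIs and the Fano factor, variance over mean, was taken, which is 1 for pure counting noise. For the 36 members with a mean of at least 1 UMI the median was 2.07, ranging from 1.4 to 3.95, and the median over all 4623 such genes was 2.03. Set against genes of like mean, 19 of the 36 were above the median of their level. The highest was the structural subunit psmb1 at 3.95, where genes of like mean had a median of 2.08, followed by psmb2 at 2.99 (2.04) and psma6a at 2.87 (2.06). The lowest were psmb4 at 1.4 (2.03), psmd3 at 1.45 (1.96) and psmc4 at 1.54 (2.04). The summed members had a mean of 136.3 UMIs per thinned cell and a Fano factor of 2.82.

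**Figure D5:**
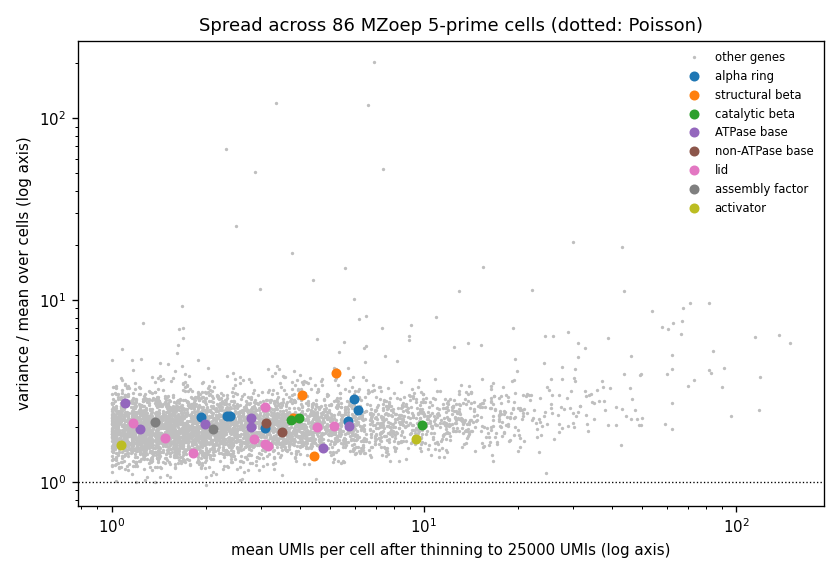
Variance over mean against mean UMIs per cell (both log axes) over 86 MZoep 5-prime cells thinned to 25000 UMIs, for the 36 members with a mean of at least 1 UMI (coloured by role) and all other such genes (grey); the dotted line is the Poisson value of 1. The members lie within the grey cloud, from psmb4 at 1.4 to psmb1 at 3.95.

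Correlations between members across cells were weak. Over the 7 full-length sets of cells with at least 10 cells of one batch and genotype, the median Spearman's rho over the 820 pairs of the 41 measured proteasome genes lay between 0.02 and 0.09. Pairs of a member and another measured gene had medians between 0.02 and 0.07 in the same sets. In the thinned 5-prime cells the values were 0.0015 and 0.00067, over 630 member pairs. The value for member pairs was the higher one in all 8 sets, by little. Each member was also set against the sum of the other members, which gave medians of 0.09 to 0.18 in the full-length sets and 0.04 in the 5-prime cells. For other genes against the members' sum the medians were -0.01 to 0.11 and -0.01, lower in all 8 sets; in MZoep cells of p2 they were 0.14 for members and 0.05 for other genes. Such small values in sparse data, from pairs that share libraries and depth, are given as a description and are no finding.

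Genes that work with the proteasome but fall outside the name rule were taken from a list of 41 symbols, of which 33 had rows and 23 were measured. Their median log2 ratio was 0.03, which relative to all measured genes is -0.09. At least 1.5-fold higher in MZoep was usp14 (10.2 and 17.3 FPKM), a deubiquitinase that docks on the base, with a ratio of 0.71, and at least 1.5-fold lower was uchl5 (16.3 and 9.71 FPKM), another docked deubiquitinase, at -0.69. Within p1 to p4 the usp14 ratio was 1.29, 1.06, 1.01 and -0.20. That of uchl5 was -0.26, -0.41, -0.64 and -1.36, below 0 in each batch. Each is 1 of 23 (4.35%), beside 14.1% higher and 6.61% lower over all measured genes. In each of p2 to p4, ubqln4 was higher and uchl5 lower, again 1 of 23 each, beside 24.1% and 9.68%.

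Close to the core, the maturation factor pomp had 59.5 (wild type) and 62.4 FPKM (MZoep), and the small lid subunit shfm1 had 40.99 and 42.2 FPKM. The nuclear import factor akirin2 had 73.5 and 85.2 FPKM. Transcripts of nfe2l1a and nfe2l1b, whose mammalian counterpart drives proteasome genes when the proteasome is inhibited, were low, at 0.13 and 0.19 FPKM and at 0.12 and 0.94 FPKM. The ubiquitin genes ubc and rps27a were the most abundant of the list, ubc at 659.1 and 653.9 FPKM and rps27a at 222.4 and 240.8 FPKM, although their shared ubiquitin sequence makes the split between them uncertain.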

How the data were processed

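The authors deposited FPKM for the full-length libraries and UMI counts for the 5-prime libraries, 1 column per cell. Alignment and quantification used Bowtie2 and RSEM with build GRCz10, per the submitters' processing notes; the sources used here give no versions, annotation, filters or way of collapsing UMIs. FPKM is relative, so the highest rows move all others. RSEM shares ambiguous reads among close gene copies. In the deposited count table, the 328 columns outside batch p0 hold only 0 and were not used.

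Full-length cells with fewer than 1500 genes (5 wild-type, 31 MZoep) and 5-prime cells with fewer than 500 genes (2) were left out. No doublet caller was run on these hand-picked cells, and no 2 kept columns were identical. Batch weights were 7.85%, 32.4%, 37.8% and 22.0% for p1 to p4. Whether a batch name means shared handling of both genotypes is not stated. Relative depth came from the position of the 1-read step in low values: of 243767 values of genes seen in few cells, 42637 lay within 0.1 log2 of 1 read, 17417 within that of 2 reads and 8523 in an equal window between. Counts were scaled to 1000000 UMIs per cell or library for CPM. For the Fano factor, genes of like level had a mean within 0.25 log2. On simulated data, large planted changes were recovered in direction, and thinned cells held the set total of UMIs. The Fano factor was checked there on counts that were not thinned. Small changes and batch effects were not simulated.

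The members, roles, partner and marker lists were chosen with earlier results of these data known. The genes described in full were the catalytic and inducible beta subunits, the highest and lowest measured gene of each role, the 5 highest and 5 lowest ratios, members past 2-fold and pairs of copies; others illustrate a role and were chosen after their values were seen. Gene symbols follow the zebrafish convention of lower case. Neither coordinates nor sequences are given, since no genome of the files' build was used. Alternatives were other pseudocounts, filters, weights and scalings, each batch left out, and the highest cell left out. Python 3.11.15, numpy 2.4.6, pandas 2.3.3, scipy 1.17.1 and matplotlib 3.10.9 were used.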

Additional observations from a re-analysis of the deposited data

How the results depend on the processing

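No paired analysis was possible because the labels name no embryo or replicate and each genotype is 1 sample. Over the 13 alternatives the members' median log2 ratio lay between 0.10 and 0.29. Relative to the median of all genes, which was above 0 each time too, it lay between -0.02 (highest cell dropped) and 0.10 (no filter on low genes), so the relative value of 0.04 did not keep its sign. The count of members at least 1.5-fold higher in MZoep moved most. It was 1 with a pseudocount of 10 FPKM, 7 with no filter on low genes (of 56) and 2 without batch p2. It was 8 without batch p3 (of 43), 10 when log2 values were averaged and 7 when each gene's highest cell was dropped per genotype. All measured genes moved too, to 3.72%, 10.9%, 14.05%, 14.7%, 20.7% and 19.3% in that order. Without p4 the count was 4 of 42, where 19.4% of all measured genes passed. Of these 4 members, 2 (psma8 and psmd12) were among the 4 of the report. The gene psmd12 was past 1.5-fold under each alternative run, and with a pseudocount of 10 FPKM it was the only member. Without p2, as without p4, psma1 and psmg3 were not past that limit. Averaging log2 values left out psmg3. The gene psma8 was not past the limit with no filter on cells, with no batch weights or when rescaled without the 10 highest rows. With means of log2 values 2 of 42 members, psmd8 and psmd10, were at least 1.5-fold lower, where the same held for 5.69% of all measured genes. With no filter on cells the members took 0.255% of FPKM in wild type and 0.272% in MZoep. Without thinning, 29 of 42 members had a Fano factor above the median of genes of like level, beside 19 of 36 with thinning. Unthinned cells also differed in total UMIs, from 29246 to 73231, and the part of this was not tested. Of 364 values of named genes under these settings, 344 moved by less than the spread between batches and 20 moved by more. The 344 include 28 values with no filter on low genes, a setting that cannot change a gene's own ratio. Values with a batch left out were judged against the spread between those same batches, so the tally is a weak check. No ratio that was past 1.5-fold changed sign, but several smaller ratios did. Without p1 psmc1b went from -0.05 to 0.50, without p2 psmc1a from 0.24 to -0.14, and without p3 psmb2 from 0.21 to -0.03. The spread between batches was wide for some genes, so psma1, from 0.73 to 1.42 without p3, counted as moving by less. The causes were not tested.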
